A study of Mus musculus with 12 samples.

Results

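The genes described here are 36 genes whose products work in the lysosome. Lipa and Dpp7 were chosen for their values after Sap30bp knockdown, Lipa for its level and Dpp7 for its splicing. The other 34 were listed beside them by function, with results of these data known. All 36 are among the 54393 genes of the authors' deposited expression table and among the 21541 of them that carry a test. All except Tfeb, 35 genes, are in the splicing table, with 872 entries. Of these, 125 events in 23 genes could be tested, among 28980 tested events in all.

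The data are 12 libraries of polyA RNA from a mouse neuroblastoma line, N2a Flp-In rtTA, in 6 groups of 2 biological replicates. All groups carried a FLAG-tagged Sap30bp cDNA that doxycycline switches on. In the mEx3 line this cDNA lacks exon 3 of Sap30bp and in the pEx3 line it has it. Both lines received a non-targeting siRNA (control), 1 siRNA to Sap30bp without doxycycline (knockdown), or the same siRNA followed by doxycycline (rescue). Doxycycline was added at the medium change 24 hours after transfection, and wells of a condition were combined at harvest at 72 hours. No group received control siRNA with doxycycline, so doxycycline and isoform cannot be told apart, nor can isoform and line. The sources used here do not say whether either line is a single clone.

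Lysosomes are acidic organelles that break down lipids, proteins, glycans and sulfated polysaccharides. Soluble hydrolases reach them mostly through the mannose 6-phosphate receptors, and membrane proteins carry the products out. Transcription factors of the TFE family, among them TFEB, activate many lysosomal genes through a short promoter motif, the CLEAR element. SAP30BP works with RBM17, a splicing factor, in the removal of short introns.

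The authors' deposited expression table gives 1 RPKM value per group, a level scaled to gene length and library size, so no error can be given for a level. Its log2 fold changes, p-values and FDR are the authors' own, and a gene is called changed here at an FDR under 0.05. For Sap30bp itself the authors' deposited table gives 40.0, 21.7 and 196 RPKM in control, knockdown and rescue of the mEx3 line, and 33.6, 18.6 and 141 in the pEx3 line. The authors' deposited log2 fold change on knockdown was -0.63 (FDR 0.0674) and -0.60 (FDR 0.0684), so the lower level missed the threshold in both lines. Adrenergic neuroblastoma markers were present, 10 of 13 at 1 RPKM or more in every group of the authors' deposited table, and their summed level was between 957 and 1325 RPKM. The 13 macrophage and microglia markers summed to 1.76 and 3.50 RPKM in control and knockdown of the mEx3 line, and to 2.21 and 3.77 in the other, again from the authors' deposited table. Of these 13, 11 were under 1 RPKM in all groups of the authors' deposited table, and these 11 include 2 that were at 0 throughout. Cd68 passed 1 RPKM, with 0.70 and 1.73 RPKM in control and knockdown of the mEx3 line and 0.68 and 2.38 in the other. It was not called in either line (FDR 0.21 and 0.138, authors' deposited table). Fcer1g reached 1.06 RPKM in rescue of the pEx3 line. The 8 fibroblast markers summed to between 1.58 and 4.28 RPKM in the authors' deposited table, with 1 at 0 in all groups.

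Lipa rose and nearly all other lysosomal genes had lower values after knockdown. By the authors' deposited values, 35 of the 36 genes had a negative log2 fold change in both lines, all except Lipa. Over all tested genes 36.5% were negative in both lines in that authors' deposited table, and 42.7% of those with a mean of at least 1 RPKM. The median log2 fold change of the 36 genes was -0.45 in the mEx3 and -0.48 in the pEx3 line, where the authors' deposited table has medians of 0.00 over all genes. Fewer passed gene by gene. The authors' FDR called 4 of 36 genes in the mEx3 line, 3 lower and 1 higher, where 2.26% of all genes were called and 1.14% were called lower. In the pEx3 line it called 8 of 36, 7 lower and 1 higher, where 3.68% of all genes were called and 2.2% were called lower. Of the 12834 genes with a mean of at least 1 RPKM, it called 342 in the mEx3 line, 223 of them lower. For the pEx3 line it called 591 of these 12834 genes, 411 of them lower. The 1 member called higher is Lipa, which was chosen for these values. Of the other 35, Galns and Tpp1 were called in both lines with one sign, a rule that 1.57% of all genes met. When the authors' p-values of both lines were combined, 18 members were called lower and 1 higher at an adjusted p under 0.05, against 10.6% of all genes called and 6.38% called lower. As the list was written with these results known, the counts are a description of it. Whether fewer cells of a kind or less RNA per cell lies behind a lower level cannot be told apart in bulk RNA.

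**Figure D1:**
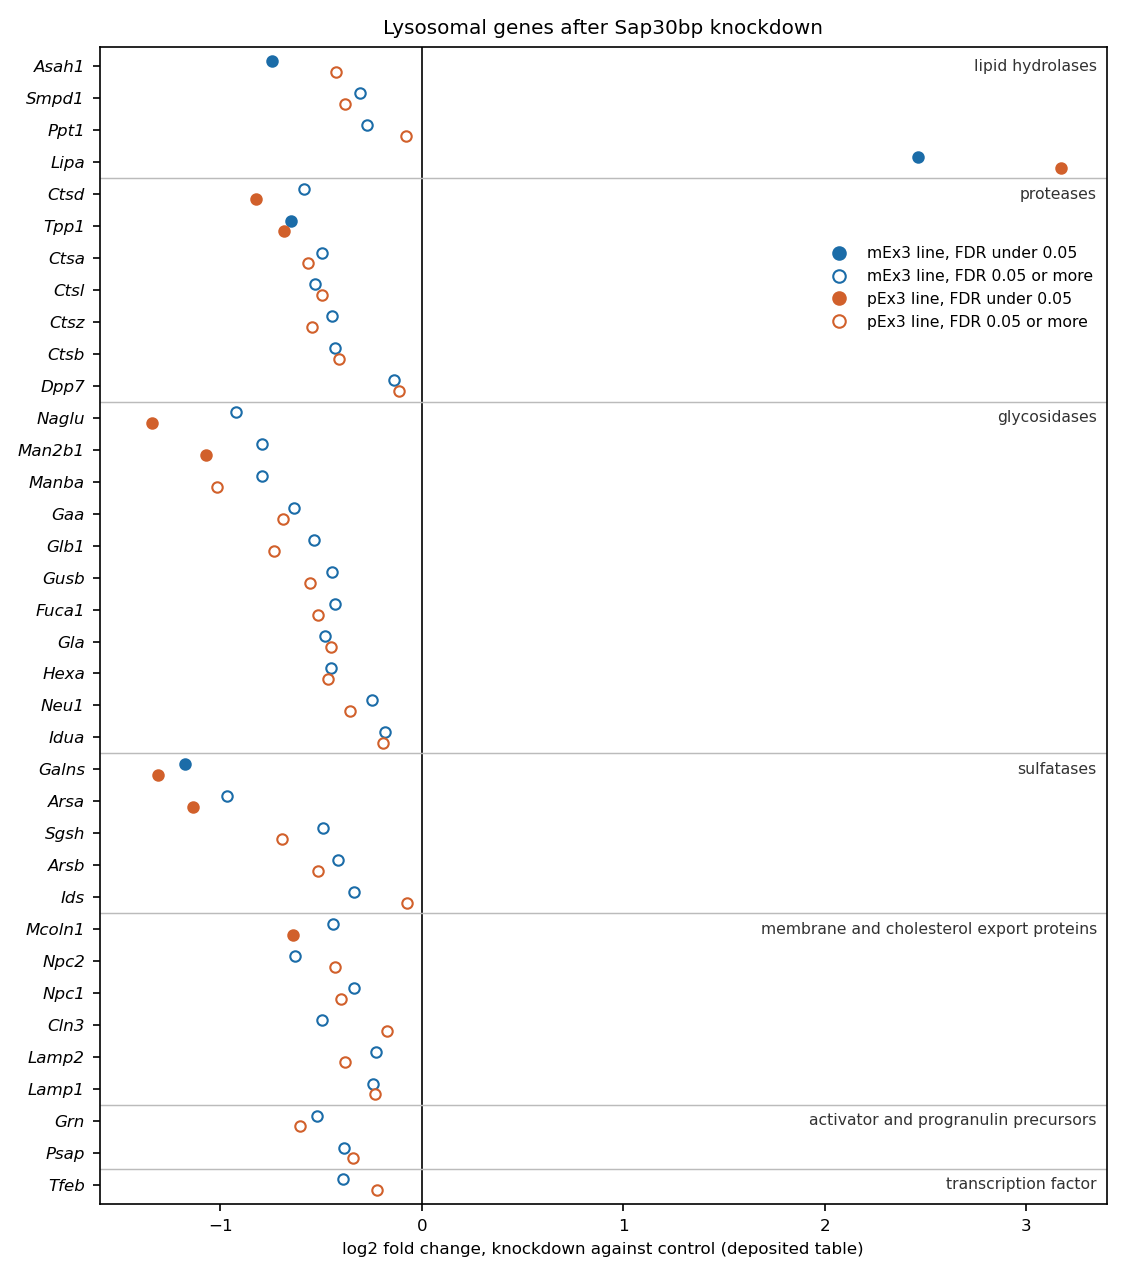
Log2 fold change of each lysosomal gene on Sap30bp knockdown from the authors' deposited table (x axis), with genes grouped by role (y axis). Filled points passed an FDR of 0.05 and open points did not; Lipa stands at 2.46 and 3.17, and all other points lie below 0.

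The lipid hydrolases held the one gene that rose. Lipa encodes lysosomal acid lipase, which splits cholesteryl esters and triglycerides delivered to the lysosome. Its authors' deposited levels in control, knockdown and rescue were 1.07, 6.01 and 4.38 RPKM in the mEx3 line. Those of the pEx3 line in the authors' deposited table were 2.15, 19.2 and 14.0 RPKM in this order. Lipa was thus highest after knockdown, and rescue lay between knockdown and control, in both lines. The authors' deposited log2 fold changes of Lipa on knockdown, 2.46 and 3.17, are what it was chosen for and are given without a test. The 3 others had lower values. Asah1, acid ceramidase, went from 97.0 to 61.4 RPKM in the mEx3 line, a log2 fold change of -0.74 (FDR 0.0224) in the authors' deposited table. Asah1 was at 114 and 82.2 RPKM in the pEx3 line, with -0.43 (FDR 0.318) in the authors' deposited table. Smpd1, acid sphingomyelinase, and Ppt1, which removes palmitate from proteins, had authors' deposited log2 fold changes between -0.38 and -0.08 and were not called in either line.

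Of the 7 proteases, 1 was called lower in the mEx3 and 2 in the pEx3 line, and their median log2 fold changes were -0.50 and -0.55 in the authors' deposited table. Tpp1, a tripeptidyl peptidase, fell in both lines. The levels of Tpp1 in control and knockdown were 57.8 and 42.9 RPKM for the mEx3 line (log2 fold change -0.65, FDR 0.0429; authors' deposited table). For the pEx3 line they were 50.5 and 39.2 RPKM (-0.69, FDR 0.0179; authors' deposited table). These levels give smaller log2 ratios for Tpp1, -0.42 in the mEx3 and -0.36 in the pEx3 line, with 1 RPKM added to each level. Ctsd, the aspartic protease cathepsin D, fell from 384 to 219 RPKM in the pEx3 line (-0.82, FDR 0.0423; authors' deposited table). Ctsd was at 282 and 186 RPKM in the mEx3 line (-0.59, FDR 0.279; authors' deposited table). Ctsa, the protective protein that stabilises beta-galactosidase and sialidase, had authors' deposited log2 fold changes of -0.50 (FDR 0.248) and -0.56 (FDR 0.124), from 98.8 to 66.5 and from 88.1 to 62.0 RPKM. Ctsb, Ctsl and Ctsz, cysteine cathepsins, had authors' deposited log2 fold changes between -0.55 and -0.41, none of them called. Dpp7, a dipeptidyl peptidase that cuts after proline or alanine, was nearest to 0 of the proteases, with -0.14 and -0.11 in the authors' deposited table. Its authors' deposited levels were 55.4, 49.3 and 51.4 RPKM in control, knockdown and rescue of the mEx3 line and 49.0, 47.3 and 46.2 in the other.

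Among the 11 glycosidases, which trim sugars from glycoproteins, glycolipids and glycosaminoglycans, all had negative values on knockdown in both lines of the authors' deposited table, with medians of -0.48 and -0.56. Naglu, which acts on heparan sulfate, fell from 20.5 to 9.28 RPKM in the pEx3 line (log2 fold change -1.34, FDR 0.00613; authors' deposited table). Naglu was at 24.96 and 13.9 RPKM in the mEx3 line (-0.92, FDR 0.148; authors' deposited table). Man2b1, the lysosomal alpha-mannosidase, fell from 18.0 to 8.26 RPKM in the pEx3 line (-1.07, FDR 0.00157; authors' deposited table). For Man2b1 the mEx3 line gave 14.2 and 8.71 RPKM (-0.80, FDR 0.0554; authors' deposited table), just missing the threshold. These were the glycosidases called on knockdown, both in the pEx3 line. Manba, the beta-mannosidase, had similar values of -0.79 (FDR 0.378) and -1.02 (FDR 0.135) in the authors' deposited table, from 11.6 to 6.68 and from 15.9 to 7.71 RPKM. Gaa, which breaks down glycogen, had -0.64 (FDR 0.130) and -0.69 (FDR 0.0646), and Glb1, beta-galactosidase, had -0.54 (FDR 0.334) and -0.73 (FDR 0.0753) in the authors' deposited table. Glb1 was at 50.2 and 34.0 RPKM and at 59.3 and 36.2 RPKM in control and knockdown of the lines. The other 6, Hexa, Gla, Gusb, Neu1, Idua and Fuca1, lay between -0.56 and -0.18 in the authors' deposited table, with control levels from 1.58 RPKM for Idua to 65.6 for Hexa.

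The sulfatases remove sulfate from glycosaminoglycans and sulfatide, and they held the gene with the lowest mean log2 fold change of the list. Galns, which acts on keratan sulfate and chondroitin sulfate, fell from 17.2 to 7.41 RPKM in the mEx3 line (log2 fold change -1.17, FDR 0.0120; authors' deposited table). It also fell in the pEx3 line, from 15.8 to 6.47 RPKM (-1.31, FDR 0.00213; authors' deposited table). Arsa, which removes sulfate from sulfatide, fell from 17.7 to 8.34 RPKM in the pEx3 line (-1.13, FDR 0.00829; authors' deposited table). Arsa was at 18.2 and 9.86 RPKM in the mEx3 line, close to the threshold (-0.97, FDR 0.0524; authors' deposited table). Sgsh, which acts on heparan sulfate, was at 5.66 and 4.03 RPKM and at 4.30 and 2.94 RPKM in control and knockdown of the lines in the authors' deposited table. Sgsh, Arsb and Ids had authors' deposited log2 fold changes between -0.69 and -0.08 and were not called.

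The 6 membrane and cholesterol export proteins had medians of -0.39 in both lines of the authors' deposited table. Mcoln1, a calcium channel of the lysosomal membrane, fell from 50.8 to 32.4 RPKM in the pEx3 line (log2 fold change -0.64, FDR 0.0262; authors' deposited table). Mcoln1 was at 64.2 and 52.5 RPKM in the mEx3 line (-0.44, FDR 0.259; authors' deposited table). Npc1 and Npc2 pass cholesterol out of the lysosome, the step after Lipa. Npc2 went from 41.6 to 29.9 and from 41.1 to 31.1 RPKM, with authors' deposited log2 fold changes of -0.63 (FDR 0.208) and -0.43 (FDR 0.474), and Npc1 had -0.34 (FDR 0.727) and -0.40 (FDR 0.537). Cln3 was at 15.2 and 11.8 RPKM and at 14.3 and 14.2 RPKM in control and knockdown of the lines in the authors' deposited table. Lamp1, Lamp2 and Cln3 lay between -0.49 and -0.17 in the authors' deposited table. Grn, the progranulin precursor, went from 92.4 to 65.9 RPKM and from 79.0 to 55.4 RPKM, both from the authors' deposited table. It had -0.52 (FDR 0.437) and -0.60 (FDR 0.256) and Psap, which gives the saposins that help lipid hydrolases, had -0.38 (FDR 0.742) and -0.34 (FDR 0.734) in the authors' deposited table. Psap was the most abundant of the 36, at 476 and 393 RPKM in the controls of the authors' deposited table. Tfeb was at 5.83 and 4.07 RPKM in control and knockdown of the mEx3 line and at 3.58 and 3.64 in the other, with FDR of 0.806 and 0.945 in the authors' deposited table.

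The next question was whether the induced isoforms moved the genes back. In the authors' deposited table rescue against knockdown called 0 of 36 genes in either line, where 0.0232% of all genes were called in the mEx3 and 0.00464% in the pEx3 line. At an unadjusted p under 0.05 the authors' deposited table has 2 of 36 (5.56%) and 0 of 36, near its shares of 5.98% and 1.33% over all genes. The levels lay between control and knockdown for 29 of 36 genes in the mEx3 and for 23 of 36 in the pEx3 line of the authors' deposited table. The share of all genes that lay between was not computed, so these counts only describe the list. Without Lipa, the median level after knockdown was 72.3% of control and after rescue 85.7% in the mEx3 line, computed from the authors' deposited RPKM. The same medians were 71.5% and 75.5% in the pEx3 line, again from the authors' deposited RPKM. Over the 12834 genes with a mean of at least 1 RPKM, the authors' deposited values give medians of 98.9% and 99.4% after knockdown and 100.3% and 99.9% after rescue. These medians mix genes that were higher and lower on knockdown, so they are no reference for the rescue of lower genes. A test of the difference between the lines in rescue against knockdown, from the authors' p-values, called 0 of 36 genes (0 with an unadjusted p under 0.05), where 0.00928% of all genes were called. The same test of the knockdown effect also called 0 of 36 (0 with an unadjusted p under 0.05), against 0.00928% of all genes. Lipa, chosen for its knockdown values, is among these 36. Both tests compare the p-values of the lines and not their fold changes, so the lack of calls does not show equal effects. The comparisons of rescue with knockdown share the knockdown libraries with the values above. Genes that are low in those libraries can read higher after rescue for that reason alone.

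**Figure D2:**
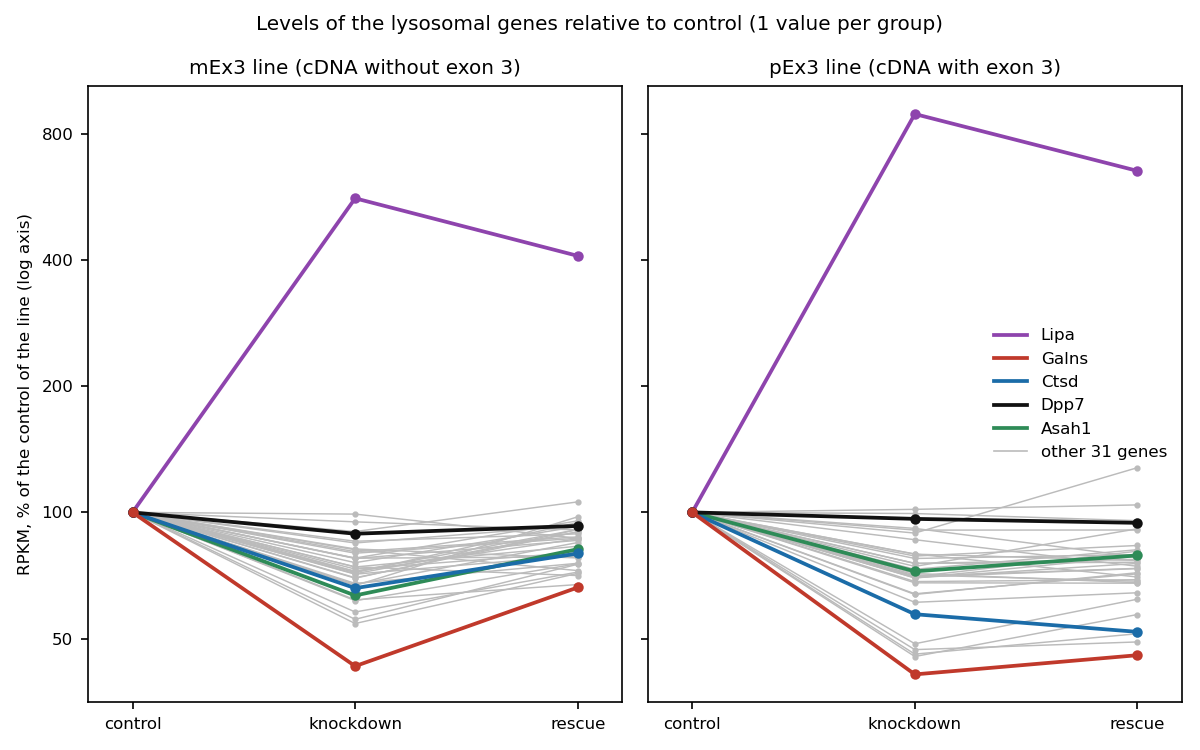
RPKM of the 36 lysosomal genes in control, knockdown and rescue (x axis) as a percentage of the control of the same line (y axis, log scale), from the authors' deposited table with 1 value per group. Lipa rises far above 100% in both lines, Dpp7 stays near 100%, Galns and Ctsd lie below it, and Asah1 and most grey lines turn upwards again after rescue in the mEx3 line.

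Against control, rescue called 1 of 36 genes in the mEx3 line, where 0.924% of all genes were called in the authors' deposited table. It was Lipa, in a comparison that shares the control libraries it was chosen on, still higher by 1.96 on the log2 scale of the authors' deposited table. Against the pEx3 control 5 of 36 genes were called, where 2.27% of all genes were called and 1.3% were called lower in the authors' deposited table. Lipa was higher by 2.72, and 4 enzymes were lower in the authors' deposited table: Galns by -1.16 (FDR 0.0143), Arsa by -1.05 (FDR 0.0253), Man2b1 by -1.02 (FDR 0.00454) and Ctsd by -0.97 (FDR 0.0132). Ctsd was at 199 RPKM after rescue in that line, below its 219 after knockdown in the authors' deposited table. Tpp1, called on knockdown in both lines, had authors' deposited log2 fold changes of -0.58 (FDR 0.166) and -0.53 (FDR 0.163) between rescue and control.

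The lines also differed in the level of a few members in each condition. For Lipa, the comparisons in control and after knockdown use libraries that it was chosen on. Lamp2, a structural protein of the lysosomal membrane, was at 27.9, 25.2 and 29.6 RPKM in control, knockdown and rescue of the mEx3 line in the authors' deposited table. The authors' deposited levels of Lamp2 in the pEx3 line were 93.9, 65.5 and 71.0 RPKM, all above those of the other line. The authors' deposited log2 differences between the lines for Lamp2 were 1.59 (FDR 1.74e-09), 1.43 (FDR 1.65e-07) and 1.39 (FDR 3.59e-07). Gaa was lower in the pEx3 line in all 3 conditions, by -0.76 (FDR 0.0299), -0.81 (FDR 0.0203) and -0.73 (FDR 0.0471) in the authors' deposited table, with 102, 62.8 and 68.3 against 61.4, 41.7 and 41.6 RPKM. Lipa was higher in the pEx3 line after rescue (1.70, FDR 5.91e-05) in the authors' deposited table. Its authors' deposited log2 differences in control and after knockdown were 0.95 and 1.66. Both are given without a test, because these libraries chose it. Its authors' deposited log2 fold changes on knockdown, 2.46 in the mEx3 and 3.17 in the pEx3 line, are likewise given without a test. After knockdown Gusb, beta-glucuronidase (-0.74, FDR 0.0245), and Mcoln1 (-0.66, FDR 0.0216) were also lower in the pEx3 line of the authors' deposited table. In all, 2, 5 (with Lipa) and 3 of 36 genes differed between the lines in control, knockdown and rescue, where 3.73%, 2.9% and 3.29% of all genes did in the authors' deposited table.

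Other genes of the lysosome, from lists of non-members, were read in the same way. Over all genes of the authors' deposited table, 50.1% and 49.9% had lower values in the mEx3 and pEx3 line. Of all genes, 2.26% and 3.68% were called in these lines, and 1.14% and 2.2% were called lower. Of 34 other hydrolases and related enzymes, 28 had lower values in each line, with medians of -0.47 and -0.38 in the authors' deposited table. Among them Plbd2 (-0.62, FDR 0.0295, and -0.65, FDR 0.0126) fell in both lines of the authors' deposited table. None of these 34 was called higher, and 3 and 4 were called lower in the mEx3 and pEx3 line of the authors' deposited table. Of 27 other lysosomal membrane proteins, 23 and 22 had lower values, with authors' deposited medians of -0.39 and -0.31, and 0 and 5 were called lower. The 18 subunits of the V-ATPase, the proton pump that acidifies the lysosome, had 14 and 11 lower values, with authors' deposited medians of -0.17 and -0.05, and 0 were called in either line. The 23 TFE factors and mTORC1 components, which sense nutrients at the lysosome, had authors' deposited medians of 0.02 and 0.04 and 1 call in each line. It was Mitf, a TFE family member, which rose from 0.35 to 0.82 RPKM (1.22, FDR 0.0120) and from 0.65 to 1.47 RPKM (1.19, FDR 0.00676), by the authors' deposited table. Tfe3 had authors' deposited log2 fold changes of -0.01 (FDR 1) and -0.10 (FDR 0.962).

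The promoters of the members were read for the E-box CACGTG and for the CLEAR core TCACGTGA, which holds that E-box. Both motifs read the same on either strand. The windows were 300 bases, 250 before and 50 after a RefSeq transcript start on GRCm38.p6, and 32 members matched in 37 windows. Ctsb, Npc1, Asah1 and Galns were not matched. The E-box was in 13 of 37 member windows (35.1%) and in 7.15% of all 32851 windows. The CLEAR core was in 6 of 37 member windows (16.2%) and in 0.974% of all windows. Members with the CLEAR core were Cln3, Ctsa, Ctsd, Dpp7, Gla and Mcoln1, and 7 more held an E-box alone, Arsa, Ctsl, Gaa, Glb1, Lamp1, Naglu and Sgsh. A match describes letters in a window and is not a measured binding site. The CLEAR element is a motif of many lysosomal genes, so its share in a lysosomal list does not speak to the knockdown. Whether either motif bears on the lower values was not tested. The 250 bases before the start are printed for 3 members with the CLEAR core, Mcoln1 and Ctsd, which fell in the pEx3 line, and Dpp7, which was not called, and for Lipa, which rose and whose window holds neither motif. Capitals mark the E-box or, where it is complete, the CLEAR core.
Mcoln1 (chr8:3500269-3500518, plus strand): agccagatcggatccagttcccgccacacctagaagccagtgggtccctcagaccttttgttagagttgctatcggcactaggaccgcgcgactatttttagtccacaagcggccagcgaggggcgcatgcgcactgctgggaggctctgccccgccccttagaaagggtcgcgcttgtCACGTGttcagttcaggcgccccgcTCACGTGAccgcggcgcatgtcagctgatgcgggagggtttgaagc
Ctsd (chr7:142387828-142388077, minus strand): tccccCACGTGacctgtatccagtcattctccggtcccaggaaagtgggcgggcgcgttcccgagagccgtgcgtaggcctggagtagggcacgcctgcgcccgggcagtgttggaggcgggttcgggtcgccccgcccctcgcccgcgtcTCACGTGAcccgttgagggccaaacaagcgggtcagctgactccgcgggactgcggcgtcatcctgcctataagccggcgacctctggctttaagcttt
Dpp7 (chr2:25356333-25356582, minus strand): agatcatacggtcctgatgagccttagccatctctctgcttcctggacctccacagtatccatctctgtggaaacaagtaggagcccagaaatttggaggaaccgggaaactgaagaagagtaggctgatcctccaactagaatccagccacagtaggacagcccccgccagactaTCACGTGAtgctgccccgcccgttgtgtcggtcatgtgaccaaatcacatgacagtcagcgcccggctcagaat
Lipa (chr19:34527475-34527724, minus strand): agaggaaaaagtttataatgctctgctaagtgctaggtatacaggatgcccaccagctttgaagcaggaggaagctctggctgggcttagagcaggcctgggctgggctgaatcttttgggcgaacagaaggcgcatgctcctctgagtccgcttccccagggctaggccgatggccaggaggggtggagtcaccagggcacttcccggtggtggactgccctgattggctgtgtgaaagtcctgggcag

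Splicing was read as the percent of transcripts that retain an intron or include an exon, per library. Between 182904 and 207284 events had a value in a library, and the read depth behind a value is unknown. The positions of the values are on mm9. Dpp7 has 12 introns, all short, from 70 to 529 nt. It lies on the minus strand of chromosome 2, and its introns are numbered here from the 5' end. In the mean of both lines all 12 introns had a higher retention after knockdown, 11 of them among the tested events. Intron 6 was lower in the pEx3 line, with means of 6.04% in control and 4.845% after knockdown. After knockdown 6 introns were retained more by at least 15 points, 5 of them among the tested events, and the 119 nt exon between introns 8 and 9 was included less. These values are what Dpp7 was chosen for and are given without a test.

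Intron 5 of Dpp7, 70 nt long (chr2:25210343-25210412), had the largest mean difference over both lines. Its retention was 7.14% and 14.6% in the 2 control libraries of the mEx3 line, 34.2% and 54.1% after knockdown and 19.2% and 24.2% after rescue. The retention of intron 5 in the pEx3 line was 4.41% and 14.3%, then 48.8% and 58.6%, then 15.9% and 21.4%. Every knockdown library was above every control and rescue library, and in each line rescue lay above control. The mean rise over both lines was 38.8 points (SE 4.74). It was 33.3 points in the mEx3 and 44.4 points in the pEx3 line. Rescue minus knockdown for intron 5 was -22.4 points in the mEx3 and -35.1 points in the pEx3 line (SE 6.70 each).

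Intron 4 of Dpp7 is the longest, at 529 nt (chr2:25210549-25211077), and was already the most retained in control. Its retention was 30.2% and 41.2% in control, 71.9% and 79.2% after knockdown and 51.0% and 60.2% after rescue in the mEx3 line. For intron 4 the pEx3 line gave 23.6% and 51.2%, then 63.0% and 83.9%, then 55.3% and 67.7%. In each line every knockdown library was above both controls, while rescue and knockdown overlapped in the pEx3 line. The mean rise was 37.9 points (SE 6.53), with 39.8 points in the mEx3 line, more than for intron 5 there, and 36.0 points in the pEx3 line.

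Intron 3 of Dpp7, 92 nt (chr2:25211242-25211333), rose by 33.8 points (SE 5.56) over both lines. Its retention in the mEx3 line was 20% and 27.1% in control, 45.0% and 61.5% after knockdown and 24.7% and 36.0% after rescue. Intron 3 was at 14.2% and 30.3%, then 52.1% and 68.2%, then 39.9% and 48.8% in the pEx3 line. All knockdown libraries were above the others of their line, and rescue of the pEx3 line stayed above its controls. Intron 2, 75 nt (chr2:25211474-25211548), had a value in 11 libraries and was therefore not among the tested events. It was retained in 7.80% in the 1 control library of the mEx3 line with a value, in 38.5% and 41.3% after knockdown and in 10.4% and 18.8% after rescue. In the pEx3 line intron 2 was at 7.38% and 10.4%, then 28.0% and 45.2%, then 26.7% and 33.3%. Its libraries after knockdown and rescue overlapped in that line and did not in the other.

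Introns 8 and 9 flank the 119 nt exon of Dpp7 (chr2:25209128-25209246). Intron 8, 506 nt (chr2:25209247-25209752), was at 24.7% and 31.9% in control and 46.8% and 64.3% after knockdown in the mEx3 line. It was at 27.8% and 35.6%, then 52.5% and 64.3%, in the pEx3 line. The mean rise of intron 8 was 27.0 points (SE 4.61) and that of intron 9, 91 nt (chr2:25209037-25209127), was 24.4 points (SE 4.53). The exon between them was included in 88.0% and 91.2% of transcripts in control, 69.9% and 48.5% after knockdown and 88.4% and 78.3% after rescue of the mEx3 line. For the pEx3 line these values were 87.6% and 88.4%, then 62.9% and 43.6%, then 72.1% and 77.5%. It was thus skipped more in all 4 knockdown libraries, a mean difference of -32.6 points (SE 5.01). The 140 nt exon between introns 2 and 3 had a difference of -13.5 points (SE 2.38).

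The other introns of Dpp7 moved less. Intron 10, 142 nt, differed by 14.0 points (SE 4.58), and its rescue values, 28.6% and 34.0% and then 34.8% and 48.4%, were as high as those after knockdown, 24.2% and 38.6% and then 36.5% and 44.4%. Intron 1, 88 nt, differed by 4.18 points (SE 1.47), and introns 6, 7, 11 and 12 by 0.76 to 5.70 points. At introns 1 and 7 both knockdown libraries were still above both controls in each line. Intron 7 was highest after rescue in the pEx3 line. It was at 6.40% and 10.2% in control there, 10.8% and 17.7% after knockdown and 22.6% and 24.1% after rescue. Length did not order the introns of this gene, as introns of 88, 106 and 119 nt moved less than those of 506 and 529 nt.

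**Figure D3:**
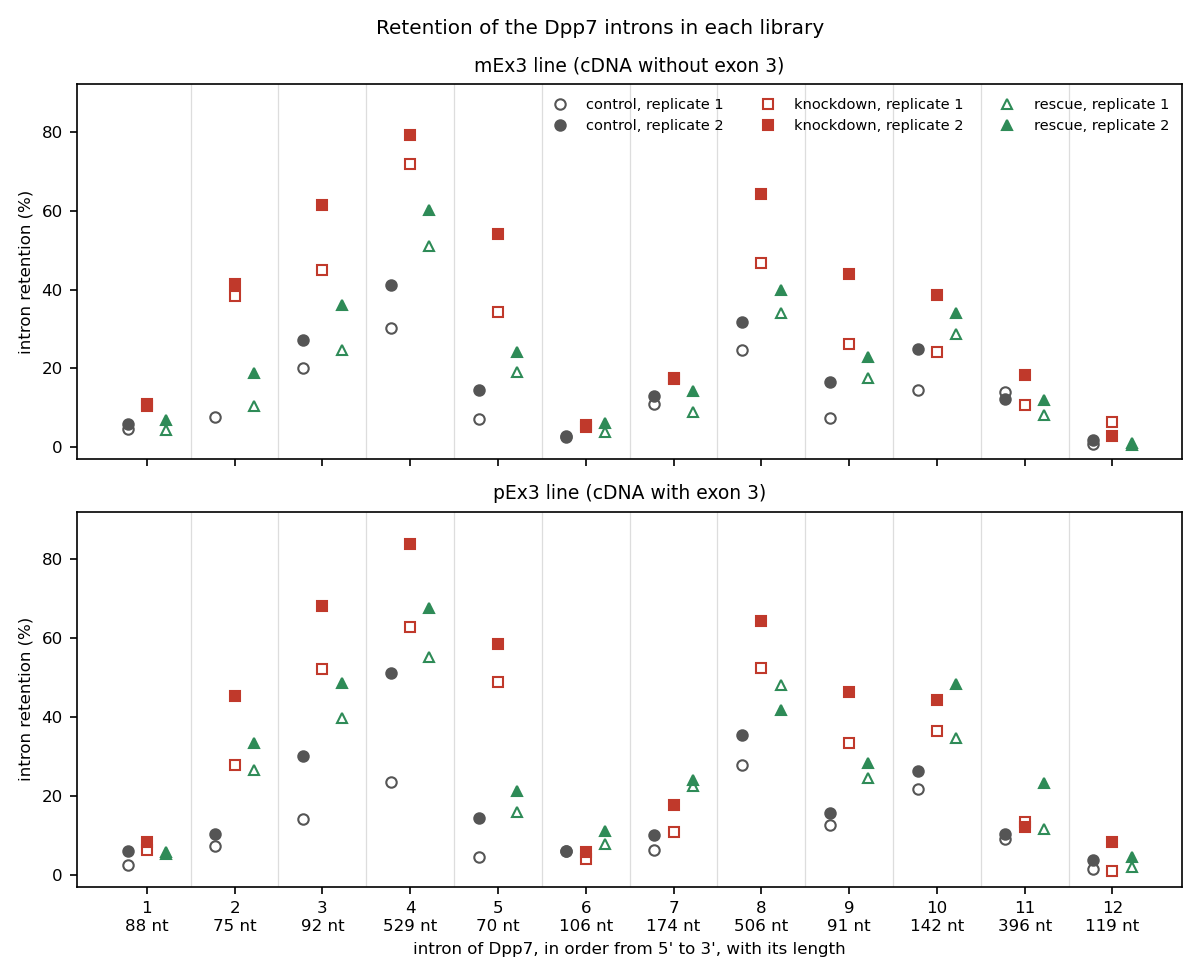
Intron retention in percent (y axis) of the 12 introns of Dpp7 from 5' to 3' (x axis, with length), 1 point per library, for the mEx3 line (top) and the pEx3 line (bottom). Knockdown squares stand above control circles in both lines at introns 1, 2, 3, 4, 5, 7, 8 and 9, by less at introns 1 and 7. Rescue triangles lie between them or overlap either at introns 1, 2, 3, 4, 5, 8 and 9. They overlap the knockdown squares at introns 2, 4 and 10 of the pEx3 line and stand above both at its introns 6 and 7. Intron 2 has no value in control replicate 2 of the mEx3 line.

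The sequences of 4 short introns of Dpp7 are printed to compare introns 2, 3 and 9, which were retained more, with intron 1, which moved by 4.18 points. They come from GENCODE M21 transcripts that keep them (GRCm38, minus strand), matched to the mm9 introns by the order and length of all 12 introns. Capitals mark the first 6 and last 3 bases, the ends that the spliceosome reads. All 7 introns with a sequence start with GT and end with AG.
intron 1 (chr2:25356143-25356230): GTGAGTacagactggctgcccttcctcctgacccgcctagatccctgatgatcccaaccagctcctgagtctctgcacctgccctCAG
intron 2 (chr2:25355954-25356028): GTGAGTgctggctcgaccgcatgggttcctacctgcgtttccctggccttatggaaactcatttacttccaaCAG
intron 3 (chr2:25355722-25355813): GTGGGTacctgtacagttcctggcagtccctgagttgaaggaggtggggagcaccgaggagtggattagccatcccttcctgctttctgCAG
intron 9 (chr2:25353517-25353607): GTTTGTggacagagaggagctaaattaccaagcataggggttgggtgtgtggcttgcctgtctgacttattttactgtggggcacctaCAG
Introns 1 and 2 share their first 6 bases and differed in their change. In the 20 bases before the final AG, pyrimidines were 14 of 20 in intron 1, 12 in intron 2, 17 in intron 3 and 12 in intron 9. Read in the frame of the protein-coding model, introns 1 and 3 bring a stop codon at intron bases 66 and 31, and so do introns 4, 8 and 10. Intron 2, whose 75 nt are a multiple of 3, and intron 9 bring none within the intron.

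Outside Dpp7, 2 events of the 36 genes were called on knockdown in the mean of both lines (limma, Benjamini-Hochberg adjusted p under 0.05 and at least 15 points). These are 2 of 107 events (1.87%), near the 1.48% called of all tested events. The 6 further calls, of 125 member events in all, are values Dpp7 was chosen for. Both were introns retained more, where 1.49% of all tested introns were. Of all tested exons, 1.6% were called included less, and the 1 called member exon was that of Dpp7. The 103 nt intron of Cln3 (chr7:133723744-133723846), a membrane protein of the lysosome, was retained in 2.56% and 5.88% in control, 21.2% and 25% after knockdown and 2.86% and 8.00% after rescue of the mEx3 line. The Cln3 intron in the pEx3 line was at 2.70% and 7.32%, then 10.5% and 23.5%, then 2.22% and 9.09%. Knockdown stood above control in both lines and rescue lay close to control. The mean difference of the Cln3 intron was 15.5 points (SE 3.05, adjusted p = 0.0210 from limma). The call was lost, with an adjusted p of 0.0554 to 0.103 from limma, without either control of the mEx3 line, replicate 2 of its knockdown or replicate 1 of the pEx3 control. Without replicate 2 of the pEx3 knockdown the difference was 12.2 points, under the size of a call.

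The 347 nt intron of Man2b1 (chr8:87620954-87621300) rose mainly in one line. Its retention was 13.6% and 16.9% in control, 45.8% and 47.4% after knockdown and 29.7% and 20% after rescue of the mEx3 line. The Man2b1 intron in the pEx3 line was at 22.4% and 14.5%, then 22.4% and 28.6%, then 35.6% and 30.2%. Control and knockdown were far apart in the first line and adjoined in the second, where rescue was highest. The mean difference was 19.2 points (SE 3.47, adjusted p = 0.0144 from limma). It was 31.4 points (SE 4.91) in the mEx3 and 7.04 points (SE 4.91) in the pEx3 line. Without replicate 1 of the mEx3 control, replicate 2 of its knockdown or replicate 2 of the pEx3 control, the adjusted p from limma was 0.0557 to 0.0764. The difference between the lines was -24.3 points (SE 6.94), which did not pass adjustment over all events (adjusted p = 1.00 from limma).

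Other introns of these genes moved in the same direction with smaller or less certain differences. A 1917 nt intron of Mcoln1 (chr8:3512866-3514782) differed by 12.2 points (SE 5.45, adjusted p = 0.253 from limma) and a 147 nt intron of Tpp1 (chr7:112898227-112898373) by 10.98 points (SE 3.24, adjusted p = 0.0901 from limma). Smaller differences with an adjusted p under 0.05 from limma were 7.06 points in a 90 nt intron of Man2b1, 5.44 points in a 1084 nt intron of Mcoln1 and -7.06 points in a 140 nt exon of Tpp1. Introns without a value in every library could not be tested: a 68 nt intron of Man2b1 with 10 values, a 77 nt intron of Cln3 with 9 and a 578 nt intron of Naglu with 11 had raw differences of 18.2, 17.1 and 13.8 points. Lipa has 8 introns of 846 to 12400 nt and none could be tested.

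Over the 77 tested introns of the 36 genes, 70 had a higher retention after knockdown and the median difference was 2.44 points. Over all 17096 tested introns 64.9% were higher and the median was 0.82 points. Without Dpp7, 59 of 66 introns were higher, with a median of 2.33 points. Introns under 100 nt had a median of 3.09 points in the members without Dpp7 (7 introns) and of 3.52 over all tested introns, where 7.61% were called retained more. From 100 to under 200 nt the medians were 3.29 points (16 introns) and 1.93, where 2.33% of all were called. They were 2.33 points (25 introns) and 0.57 from 200 to under 1000 nt, where 0.791% were called, and 1.59 points (18 introns) and 0.30 from 1000 nt, where 0.127% were called. The introns of one gene share its reads and its level, so they are not replicates. Replicate 2 had the higher intron retention in all 6 groups, by a median of 0.33 to 1.64 points over all tested introns.

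**Figure D4:**
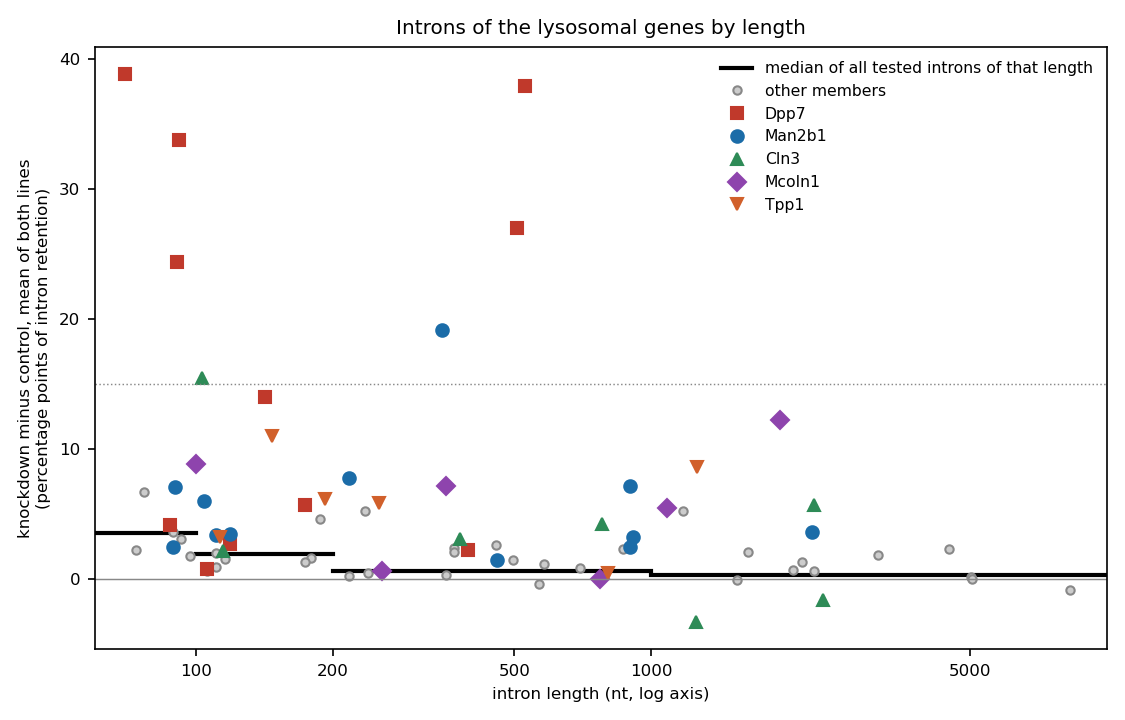
Knockdown minus control in intron retention, mean of both lines in percentage points (y axis), against intron length (x axis, log scale) for the 77 tested introns of the lysosomal genes. Black bars are the medians of all tested introns of that length, 3.52 points under 100 nt and 0.30 from 1000 nt; the dotted line marks 15 points, passed by 5 introns of Dpp7 and 1 each of Man2b1 and Cln3.

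Within a single line limma called 0 of the 107 events outside Dpp7 on knockdown in either line, where 0.0207% and 0.338% of all tested events were called in the mEx3 and pEx3 line. At an unadjusted p under 0.05 there were 9 (8.41%) and 19 (17.8%), against 10.5% and 13.5% of all tested events. Rescue against knockdown called 0 of 125 member events in each line, where 0.00345% and 0% of all tested events were called by limma. At an unadjusted p under 0.05 there were 14 (11.2%) and 10 (8.0%), against 8.57% and 6.84% of all tested events, and outside Dpp7 7 and 6 of 107 (6.54% and 5.61%). Rescue of one line against rescue of the other, which uses none of the libraries Dpp7 was chosen on, called 0 of 125 by limma, where 0.00345% of all tested events were called. At an unadjusted p under 0.05 there were 8 (6.4%), against 7.09% of all tested events. The authors' deposited splicing table, with a rule for calls not given in the sources used here, calls more events in each line. It lists 12 events in Dpp7, Galns, Man2b1, Mcoln1 and Naglu, and has 8 and 9 of them called on knockdown in the mEx3 and pEx3 line, 7 and 8 of these in Dpp7. Of all 2175 events in that authors' deposited table, 37.1% and 44.5% are called there. For rescue against knockdown the authors' deposited table has 8 and 3 calls, 6 and 3 of them in Dpp7, where 18.6% and 6.99% of all its events are called. For rescue against control it has 1 and 5, where 11.5% and 19.2% of all events of the authors' deposited table are called. Most of these events are in Dpp7, and the comparisons share libraries with the values it was chosen for. Between the rescue groups, where 11.3% of all its events are called, it has 1 member call, intron 2 of Dpp7, retained 15.2 points more in the pEx3 line of the authors' deposited table.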

How the data were processed

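The authors deposited a vast-tools inclusion table on mm9 with a percent value per event and library, and quality columns (other), with a coverage rule not given in the sources used here. Their deposited expression table holds 1 RPKM per group and, per comparison, a p-value, an FDR and the log2 fold change; Salmon 0.14.1 and edgeR are named per the submitters' processing notes. Benjamini-Hochberg values recomputed from the p-values differed from that FDR by at most 0.00055. A deposited splicing table gives changes in percentage points (score) with calls.

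Members and lists were chosen with earlier results of these data known. Splicing was fitted with limma 3.58.1 (R 4.3.3, trended, robust) on percentages of all 12 libraries with 6 group means, over events with 12 values and a mean of 2% to 98%. This left 28980 of 401633 entries, after 37194 first alternative sites were left out. Lines were compared or combined through signed z of the authors' p-values. Named are Lipa, Dpp7, members called in any comparison and the 6 next largest. The scripts were tested on simulated data. Same-numbered replicates correlated at r = 0.04 to 0.31 over 15 pairs of groups, all positive and 12 over 0.1. Numbers were not taken as pairs in the main fit, and counts with the replicate number as a block are given below. Removing libraries, filters, scales and thresholds were tried as alternatives. Some genes of the lists are not reported here by name.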

Additional observations from a re-analysis of the deposited data

How the results depend on the processing

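The count of member events called on knockdown in the mean of both lines was 8, of which 6 are values Dpp7 was chosen for, and it was 1 without the filter on mean percentage. Leaving out 1 library at a time gave 2 to 9: 2 without replicate 1 of the mEx3 control, 4 without replicate 2 of its knockdown and 4 without replicate 1 of the pEx3 control. In the mEx3 line alone the count was 0, 1 without a trended and robust variance, and 0 to 5 with 1 library left out, with 5 without replicate 1 of its knockdown. For the pEx3 line it was 1, 0 without the filter on mean percentage, and 0 to 2 with 1 library left out. With the replicate number as a block the counts were 8 for the mean of both lines, 5 for the mEx3 and 6 for the pEx3 line; the correlations behind such a pairing were all positive but 3 of 15 were 0.1 or less.

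For expression, 3 members, Lipa among them, were called in both lines. This count was 5 over genes of at least 1 RPKM, with Arsa and Man2b1 added, and 19 by the combined p of both lines. No called member changed direction. With direction on knockdown taken from the RPKM ratio, 34 members were lower in the pEx3 line, as Tfeb, not called, had a ratio of 0.02 on the log2 scale against a log2 fold change of -0.22. Of the single events outside Dpp7, the Man2b1 intron kept its call in 13 of 17 (adjusted p from limma 0.0104 to 0.0764) and the Cln3 intron in 11 of 17 (0.00412 to 0.127). The other alternatives left counts within 1.5 times. The expression table holds no value per library, so no library could be left out there, and depth is unknown for both tables. The cause of these changes was not tested.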

Other observations

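Gene lists next to the lysosome showed few calls on knockdown in the authors' deposited table. Of 38 autophagy genes, 21 and 18 had lower values in the mEx3 and pEx3 line, with authors' deposited medians of -0.03 and 0.02. Wipi1, a phosphoinositide-binding protein of early autophagosomes, fell in both lines, from 69.4 to 29.2 RPKM (-1.14, FDR 0.0190) and from 85.2 to 35.7 RPKM (-1.20, FDR 0.00769) in the authors' deposited table. It was the 1 autophagy gene called in both lines. Of 23 genes of mannose 6-phosphate sorting, 11 and 12 had lower values and 0 were called in either line of the authors' deposited table. The 7 dipeptidyl peptidases and relatives other than Dpp7 had 0 calls in either line of the authors' deposited table.

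Among 18 genes of neutral lipid and cholesterol handling, 11 and 12 had lower values in the authors' deposited table, with medians of -0.16 and -0.33. Of these 18, 1 was called higher in the mEx3 line and 2 were called lower in the pEx3 line. Soat1, which esterifies cholesterol and so works opposite to Lipa, rose from 0.96 to 3.13 RPKM in the mEx3 line (1.43, FDR 0.00114) and was at 8.26 and 10.6 RPKM in the other (0.54, FDR 0.419; authors' deposited table). Abca1, a cholesterol exporter of the cell surface, fell from 3.23 to 0.76 RPKM in the pEx3 line (-2.08, FDR 0.00170) and had -1.09 (FDR 0.266) in the other in the authors' deposited table. Plin3, a lipid droplet coat protein, fell from 19.0 to 11.1 RPKM in the pEx3 line (-0.91, FDR 0.0102; authors' deposited table). Of 12 tested neuroblastoma markers, 6 and 4 had lower values in the mEx3 and pEx3 line of the authors' deposited table, with medians of -0.01 and 0.45. None was called lower, and 1 and 3 were called higher in the authors' deposited table. Phox2a rose in both lines, from 49.0 to 108 RPKM and from 36.0 to 117 RPKM, by the authors' deposited table.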
